A study of Mus musculus with 8 samples.

Results

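Double knockdown (KD) of Tip60 and Hdac6 was set against control KD in mouse E14 embryonic stem cells (ESCs), across all genes measured on the arrays. The samples were chosen by their titles, and 4 of the 8 arrays of the series belong here: 2 of double KD and 2 of control KD, lettered A and B. All cells were E14 ESCs grown without feeders on gelatin in serum medium with LIF, infected with lentivirus carrying short hairpin RNAs and collected 72 hours later. Control KD cells carried a hairpin against EGFP and double KD cells carried hairpins against both Tip60 and Hdac6. The arrays of Tip60 KD and Hdac6 KD enter for side-by-side values and direct tests. They also enter the filter and choice of probes and the shared estimate of spread behind every p-value. Every group carries a virus, each target was lowered in bulk cultures of 1 cell line, and a bulk measurement cannot tell a change in every cell from a change in the fraction of cells that express a gene. The number of hairpins differs between double KD and control KD, and the study lists 1 hairpin per target. Effects of hairpin load or of unintended targets therefore cannot be told apart from loss of the proteins. The replicates are called biological in the series description, and with 2 arrays a group the p-values measure the spread between those arrays.

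Tip60, encoded by Kat5, is the acetyltransferase of the Tip60-p400 complex, which acetylates histones and exchanges histone variants at promoters. In ESCs the complex is known for keeping developmental genes low and for supporting self-renewal. Hdac6 is a deacetylase that in many cell types is mostly cytoplasmic, where it deacetylates tubulin and carries ubiquitinated proteins to the aggresome. The comparison asks which genes change when both proteins are depleted together.

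Levels are given on the log2 scale relative to the 75th percentile of each array, so that a difference of 1 is a 2-fold change, and they are compared between arrays, never between genes. A common floor of -2.71 marks the lowest level that counted as measured. The share of spots well above background was 72.5% and 50.9% in control KD (A, then B) and 92.1% and 93.6% in double KD, and the background subtracted by the scanner software had medians of 61.0 and 114 intensity units against 39.4 and 41.4. Negative control spots had medians between 33.5 and 37.0 on these arrays. Of the ESC markers 10 of 10 were measured, with a summed level between 8.44 and 8.54 on all 4 arrays. Of the markers of other lineages, 2 of 7 were measured for primitive endoderm, 3 of 6 for mesoderm, 1 of 6 for trophectoderm, 5 of 6 for neural ectoderm and 5 of 8 for fibroblasts.

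Both hairpin targets were lowered. The Kat5 probe lies on chromosome 19 (5603017 to 5603076 on mm9) and read 1.34 and 1.37 in control KD and -0.11 and 0.20 in double KD. Both double KD arrays lay below both control arrays, a change of -1.31 (SE 0.11, limma adjusted p 0.00196) that leaves 40.4% of the control signal. The Hdac6 probe lies on chromosome X (7507261 to 7507320 on mm9) and read 2.21 and 2.18 and then 0.30 and 0.34, a change of -1.87 (SE 0.07, adjusted p 0.000736) that leaves 27.3%. A second probe of each gene changed by -1.57 and -1.79. Directly tested, Kat5 differed by 0.04 from Tip60 KD (adjusted p 0.979), and Hdac6 stood 0.62 above its level in Hdac6 KD (adjusted p 0.0147).

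Upon double KD, 5939 of 18116 genes were called at an adjusted p under 0.1 (32.8%), of which 2886 were higher (15.9% of all genes) and 3053 lower (16.9%). Most changes were small: the median size among called genes was 0.52, 530 genes changed at least 2-fold (324 higher and 206 lower) and 26 at least 4-fold (21 higher and 5 lower). The median change of all genes was 0.05. Control and double KD arrays did not overlap for 10315 genes, which is 56.9% of all. With the replicate letter as a block 10045 genes were called, all 5939 among them. Scaling each array to its median in place of the 75th percentile left 759 genes, 151 higher and 608 lower, and moved the median of all genes to -0.16. Dropping array A of control KD left 3749 genes.

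**Figure D1:**
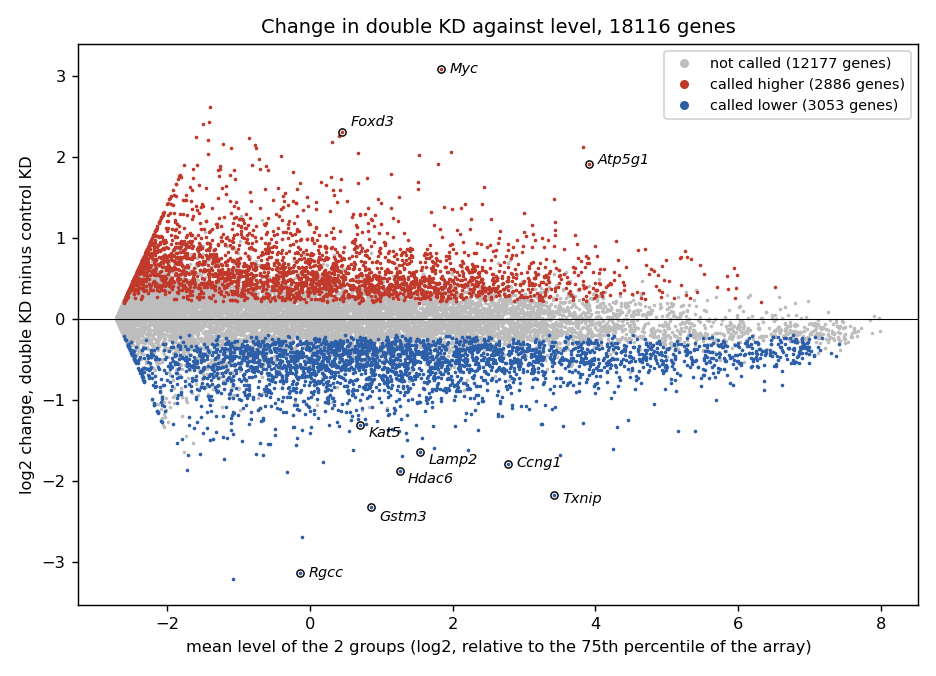
Log2 change in double KD (vertical axis) against the mean level of control KD and double KD (horizontal axis, log2 relative to the 75th percentile of the array), 1 point per gene, for 18116 genes. Red and blue points are the 2886 and 3053 genes called higher and lower, grey points were not called, and open circles mark genes described in the text, with Myc at 3.08 and Rgcc at -3.14 at the extremes.

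Since a slide carried an array of each group, the change could be read separately on slide A and on slide B. Of 5939 called genes, 5934 had the same sign on both slides and 0 had opposite signs, while the other 5 lacked a value on an array. A call already requires that replicates agree, so this count is a description. Over the 16276 genes with a difference other than 0 on both slides, 83.3% had the same sign. Across genes, which share their arrays and are not independent, the slide A and slide B changes had a Pearson's r of 0.746 and a Spearman's rho of 0.743, and an r of 0.818 among genes above the floor on all 4 arrays. A change of at least 2-fold on both slides, in the same direction, was seen in 411 called genes.

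**Figure D2:**
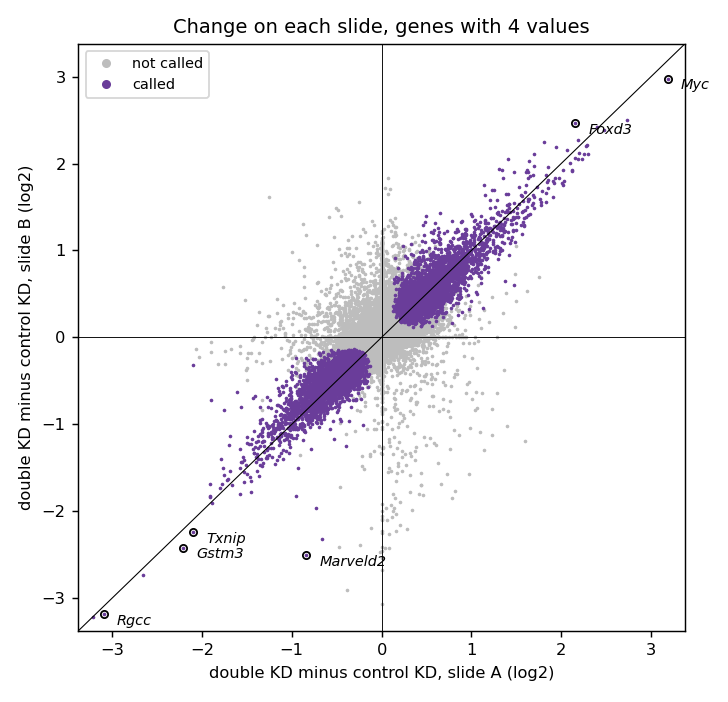
Double KD minus control KD on slide A (horizontal axis, log2) and on slide B (vertical axis, log2), 1 point per gene with a value on all 4 arrays. Called genes (purple) lie along the diagonal line of equal change, whereas Marveld2, with -0.84 on slide A and -2.50 on slide B, lies off it.

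Among named genes above the floor on all 4 arrays, Myc rose most. Myc, a growth-promoting transcription factor that also serves ESC self-renewal, read 0.34 and 0.26 in control KD and 3.52 and 3.23 in double KD, a change of 3.08 (SE 0.14, adjusted p 0.000795) or 8.45-fold. Foxd3, a transcription factor of the early epiblast and neural crest, went from -0.54 and -0.87 to 1.61 and 1.59 (2.31, SE 0.12, adjusted p 0.00094). In both genes the double KD arrays lay far above the control arrays. The ranked genes were chosen as called with large changes, so the gap between groups in them is largely set by that choice. Groups did not overlap in 56.9% of all genes. Epop, a partner of Polycomb repressive complex 2, went from 2.79 and 2.75 to 4.97 and 4.80 (2.12, adjusted p 0.000795). Setd1b, a histone H3K4 methyltransferase, went from -0.32 and -0.38 to 1.77 and 1.62 (2.05, adjusted p 0.000795). Neither of these chromatin genes had overlapping groups. Sfrp1, a Wnt antagonist, rose by 2.03 (adjusted p 0.00118), Calcoco2, an autophagy receptor, by 2.18 (adjusted p 0.000966), and Spink1, a trypsin inhibitor, by 2.25 (adjusted p 0.000847).

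The other 4 of the 11 large increases described started low. Spic, an Ets family transcription factor known from macrophages, read -2.32 and -2.28 in control KD and -0.12 and -0.16 in double KD (2.16, adjusted p 0.000645). Slc5a11, a sodium-coupled inositol transporter, read -2.13 and -2.20 and then -0.06 and -0.05 (2.11, adjusted p 0.000647). The groups did not overlap in either gene. Nefh, the heavy neurofilament chain, rose by 2.11 (adjusted p 0.00118), and Enox1, a cell surface oxidase, by 2.02 (SE 0.20, adjusted p 0.00291). Lefty2, Gap43 and Ccnd2 also changed by over 2 on the log2 scale but had a missing value or control values at the floor and were not ranked.

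Rgcc, a regulator of the cell cycle that p53 induces, fell most. It read 1.42 and 1.43 in control KD and -1.67 and -1.75 in double KD, a change of -3.14 (SE 0.10, adjusted p 0.000645) that leaves 11.4% of the control signal. Gstm3, a glutathione transferase, read 2.09 and 1.93 and then -0.12 and -0.49 (-2.32, SE 0.17, adjusted p 0.00152). Txnip, an alpha-arrestin that binds thioredoxin and limits glucose uptake, read 4.57 and 4.43 and then 2.47 and 2.19 (-2.17, SE 0.16, adjusted p 0.00151). No double KD array reached a control array in these genes. Second probes changed by -0.91 for Gstm3 and by -1.64 for Txnip.

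The promoters of Rgcc and Txnip are shown because both fell strongly and hold repeated motifs. They come from RefSeq (build GRCm38.p6) and run from 250 bases before to 50 bases after the start, on the strand of the gene. Capitals mark the CCAAT box and the GC box (letters GGGCGG) on either strand. In Txnip they also mark a pair of CACGAG stretches 5 bases apart, a form of the carbohydrate response element.
Rgcc promoter, chr14:79301586-79301885, minus strand: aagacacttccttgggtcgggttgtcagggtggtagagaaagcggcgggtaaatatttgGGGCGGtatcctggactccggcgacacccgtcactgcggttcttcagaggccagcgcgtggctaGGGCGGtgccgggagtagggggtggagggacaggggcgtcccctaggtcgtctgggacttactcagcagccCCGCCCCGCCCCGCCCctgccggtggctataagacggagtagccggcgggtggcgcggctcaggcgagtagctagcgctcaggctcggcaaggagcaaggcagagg
Txnip promoter, chr3:96557707-96558006, plus strand: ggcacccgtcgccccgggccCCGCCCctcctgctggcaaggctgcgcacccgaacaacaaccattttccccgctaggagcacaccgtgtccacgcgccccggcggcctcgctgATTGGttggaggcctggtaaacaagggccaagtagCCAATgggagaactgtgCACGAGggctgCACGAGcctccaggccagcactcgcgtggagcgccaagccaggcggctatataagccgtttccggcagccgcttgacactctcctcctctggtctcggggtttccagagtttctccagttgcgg

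The Rgcc window held 5 matches of GGGCGG, of which 3 follow each other on the opposite strand. The Txnip window held 2 of CCAAT, 1 of GGGCGG and the CACGAG pair. Among 27025 promoters in the table the Txnip window alone held that pair, which was looked for after the values were seen. Only these exact letters and this spacing were searched, so other forms of the element could not be found. Of 11412 tested genes with a listed promoter, 58.7% held GGGCGG, against 62.7% of the 1976 called higher and 70.7% of the 1972 called lower. The shares were 39.1%, 38.6% and 42.2% for CCAAT and 9.57%, 9.67% and 12.0% for CACGTG, the E-box that Myc binds. Over the whole table they were 35.9% for GGGCGG, 37.9% for CCAAT and 7.24% for CACGTG. Among called genes changed at least 2-fold, 55.1% of the 225 higher and 72.0% of the 143 lower held GGGCGG. For CCAAT these were 35.6% and 49.0%, and for CACGTG 7.56% and 12.6%. The part of signal level in these shares was not tested. Both strands were searched, and a match is a description of the letters only. Of these 23 most changed genes 15 had a promoter in the table.

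The remaining decreases held several stress genes. Ccng1, a p53-induced cyclin, read 3.68 and 3.67 in control KD and 1.77 and 1.99 in double KD (-1.79, adjusted p 0.00105). Ddit4, which restrains mTORC1 under stress, read 4.38 and 4.32 and then 2.71 and 2.62 (-1.68, adjusted p 0.000795). Gdf15, a stress-induced secreted factor, read -0.55 and -0.85 and then -2.30 and -2.43 (-1.67, adjusted p 0.00171). Each was lower on both double KD arrays than on either control array. Bhlhe40, a circadian and hypoxia-responsive repressor, fell by 1.89 (adjusted p 0.000997), the membrane protein Serinc5 by 1.76 (adjusted p 0.00094), the calmodulin-like Calml4 by 1.68 (adjusted p 0.00184) and the adenylosuccinate synthase Adssl1 by 1.67 (adjusted p 0.00139), and Hdac6 itself ranked among the 12. Marveld2, a tight junction protein, read -1.74 and -0.01 in control KD and -2.58 and -2.52 in double KD (-1.67, SE 0.51, adjusted p 0.0647). Its control arrays differed from each other by more than control and double KD did on slide A, and its change was -0.81 without array B of control KD.

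**Figure D3:**
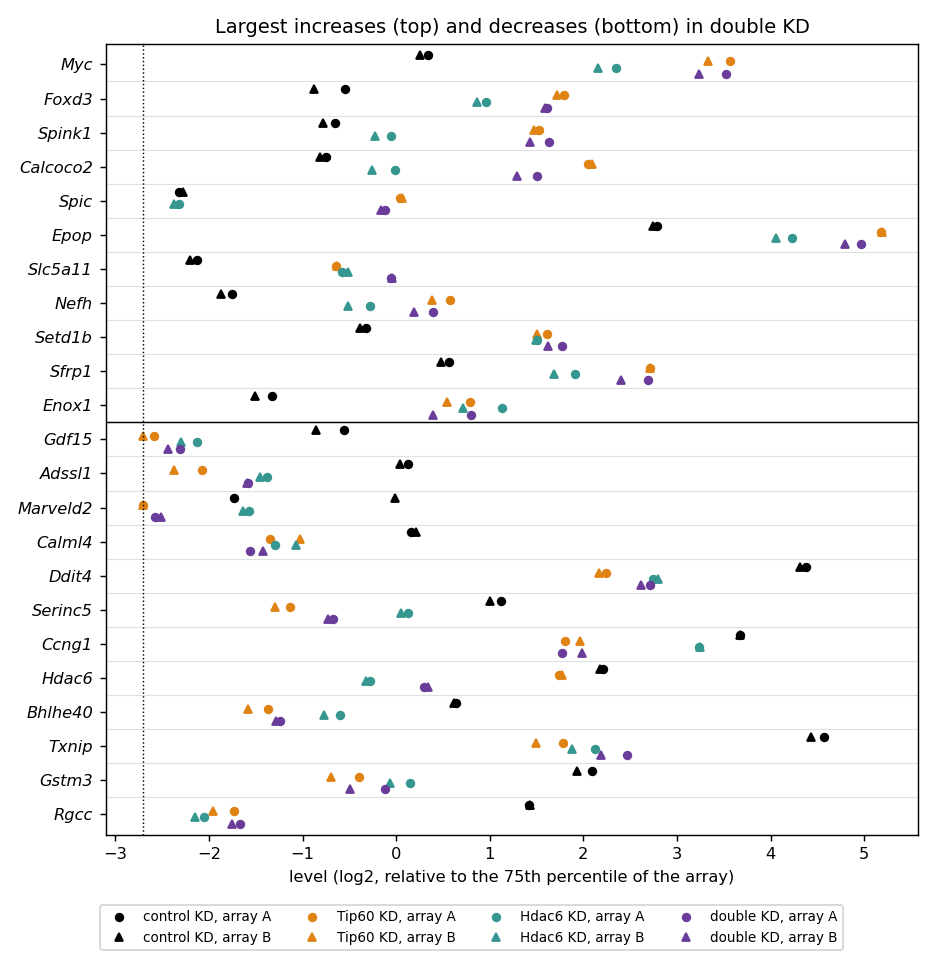
Levels of 11 of the largest increases (top) and the 12 largest decreases (bottom) on all 8 arrays, on a log2 axis relative to the 75th percentile of the array. Colours are the 4 groups, circles are arrays A and triangles arrays B, and the dotted line is the floor at -2.71. In every gene the purple points of double KD lie apart from the black points of control KD, which the choice of called genes with large changes largely sets.

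Tip60 KD and Hdac6 KD share the control arrays with double KD, so changes against control are given only side by side and differences come from direct tests. All 11 increases and all 12 decreases were called in the same direction in Tip60 KD, and 10 and 11 in Hdac6 KD. Hdac6, a hairpin target in Hdac6 KD and double KD, is among these 12, so its fall there was set by the design. All of these genes were picked as extremes against the same control arrays, so agreement is in part built in. The share of all genes called in each single knockdown is not given here, so these counts are a description. Myc changed by 3.08 in double KD, 3.15 in Tip60 KD and 1.96 in Hdac6 KD. Rgcc changed by -3.14, -3.27 and -3.53 in that order. Spic changed by 2.16 and 2.35 in the first 2 and read -2.32 and -2.38 in Hdac6 KD, close to its control level.

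Directly tested, double KD differed from Tip60 KD in 672 genes (3.71%) and from Hdac6 KD in 1829 (10.1%). The balance of higher and lower calls against Tip60 KD had no stable direction: it was 208 and 464 here, 18 and 93 in the series matrix, 2386 and 2362 with the replicate block, and 11 and 1 without Tip60 KD array B. Of the 11 increases 9 differed from Hdac6 KD, each higher in double KD, and 2 differed from Tip60 KD: Calcoco2 by -0.68 (adjusted p 0.0761) and Slc5a11 by 0.59 (adjusted p 0.0524). Of the 12 decreases, Hdac6 included, 5 differed from Hdac6 KD and 4 from Tip60 KD. Double KD was the lower group in 3 and 1 of these. The 1 against Tip60 KD was Hdac6 itself, with a difference of -1.44 (adjusted p 0.0192). Its hairpin was absent from Tip60 KD, so that difference was set by the design. Hdac6 was also among the 5, with the difference of 0.62 given above (adjusted p 0.0147). Bhlhe40 and Ccng1 fell further than upon Hdac6 KD, with differences of -0.58 and -1.36 (adjusted p 0.0405 and 0.00558). Ddit4 and Adssl1 fell less than upon Tip60 KD, with differences of 0.46 and 0.64 (adjusted p 0.0746 and 0.0799). These tests rested on all arrays, and with any 1 array left out 0 to 12 genes differed from Tip60 KD and 156 to 1287 from Hdac6 KD.

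Few genes stood apart from all 3 other groups in 1 direction. Double KD was higher than each of them in 10 genes (0.0552%) and lower in 21 (0.116%), of which 10 had no gene symbol. Dpysl3, a neuronal cytoskeletal regulator, read 0.19 and 0.07 in control KD and 1.55 and 1.44 in double KD and differed by 1.37 from control KD, 0.47 from Tip60 KD and 0.63 from Hdac6 KD (adjusted p 0.0015, 0.0948 and 0.0287). Insig1, which holds the sterol sensor in the endoplasmic reticulum, differed by 0.54, 0.58 and 0.47 in that order. Among those lower, Mpst, a sulfurtransferase, read 1.37 and 1.45 and then -0.31 and -0.09 and differed by -1.61, -0.58 and -0.47 (adjusted p 0.00118, 0.0758 and 0.0593). Hat1, which acetylates newly made histone H4, read 4.47 and 4.42 and then 3.46 and 3.61 and differed by -0.91, -0.53 and -0.43 (adjusted p 0.00207, 0.0673 and 0.0434), and a second probe changed by -0.92 against control KD. Cenpa, the centromeric histone H3 variant, differed by -0.56, -0.38 and -0.32. These genes were chosen after their values were seen, and since only 12 calls or fewer against Tip60 KD remain without any 1 array, most or all of them are lost then.

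Genes were next read by function, in lists compiled with earlier results of these data in view, against 15.9% higher and 16.9% lower over all genes. In the brightest quartile of genes the shares were 12.9% and 27.9%, so for lists of bright genes the base share of decreases is larger. With median scaling, which left 759 calls in all, 0 to 5 members of each list were called. The replicate block called 10045 of all 18116 genes, 5303 higher and 4742 lower, and every list count with the block stands against that larger share. With it the calls went from 10 to 16 among Tip60-p400 subunits, 10 to 16 among pluripotency factors and 11 to 20 among G2 and mitosis genes. They went from 9 to 14 among imprinted genes and 5 to 8 among Hdac6 substrates and aggresome partners. In the Myc network they went from 3 to 6, and among mesoderm genes from 1 to 2. Members named are mostly the most changed ones of a list, and the others were picked after their values were seen. In the list of p53 targets 14 of 25 members fell and 1 rose, with a median of -0.50. After Ccng1 and Ddit4, the death receptor gene Tnfrsf10b changed most, from 1.78 and 1.67 to 0.68 and 0.57 (-1.10, adjusted p 0.00215). Zmat3, a p53-induced RNA-binding protein, fell by 0.96, the pro-apoptotic Bbc3 by 0.89, the p53 antagonist Mdm2 by 0.69 and the cell cycle inhibitor Cdkn1a by 0.46. The 1 member that rose was Trp53 itself, by 0.49 (adjusted p 0.00931). With any 1 array left out 11 to 15 members were called, and with median scaling 5, all lower.

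Of the germ cell genes that ESCs express, 11 of 17 fell and 0 rose, with a median of -0.76. Stra8, which licenses entry into meiosis, read 2.57 and 2.05 in control KD and 0.87 and 0.81 in double KD (-1.47, adjusted p 0.00429). The X-linked homeobox genes Rhox5, Rhox6 and Rhox9 fell by 1.29, 1.19 and 1.16, the synaptonemal complex gene Sycp3 by 1.24 and Mael, of the piRNA pathway, by 1.12. The germ cell RNA-binding proteins Dazl and Ddx4 were not called (0.18 and -0.25, adjusted p 0.37 and 0.179). With any 1 array left out 9 to 11 members were called, and with median scaling 5, all lower.

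Of the alpha-arrestin and glucose response genes 13 of 22 fell and 0 rose (median -0.36). Beside Txnip, its relative Arrdc4 read 2.15 and 2.06 in control KD and 0.60 and 0.63 in double KD (-1.49, adjusted p 0.000847). The lactate dehydrogenase Ldhb read 6.20 and 5.99 and then 4.80 and 4.61 (-1.39, adjusted p 0.00207). The aldolase Aldoc fell by 1.33 (adjusted p 0.00164), Aldoa by 0.71, Pdk1, which restrains pyruvate oxidation, by 0.65 and Pgk1 by 0.58, while Pkm and the glucose transporter Slc2a1 were not called (-0.01 and -0.06). The count of 13 was 6 and 8 when array A of control KD or of double KD was dropped, and 8 after quantile normalisation. Of glutathione and oxidant defence genes 12 of 27 fell and 2 rose (median -0.24). Beside Gstm3, the mu class transferases Gstm1, Gstm2, Gstm4 and Gstm5 fell by 0.76, 0.63, 0.60 and 0.62, but these genes are alike in sequence and signal shared between their probes was not tested. The 2 increases were the peroxidase Gpx1 (0.96, adjusted p 0.00677) and the quinone reductase Nqo1 (0.87, adjusted p 0.0048).

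Growth and division genes moved in several ways. Of the cytosolic ribosomal proteins 15 of 23 fell and 0 rose (median -0.34). The members named here lie in the brightest quartile of level, where 27.9% of genes were called lower. Rpl13 went from 5.80 and 5.66 to 5.08 and 5.19 (-0.60, adjusted p 0.00642) and Rps6 from 5.81 and 5.85 to 5.27 and 5.29 (-0.55, adjusted p 0.00515). Other probes changed by -0.87 to -0.20 for Rpl13, and by -0.55 and 0.32 for Rps6. That count depended on the scaling and on single arrays: it was 2 after quantile normalisation (median -0.09), 4 in the series matrix, 5 and 8 without control KD array A or B, and 6 when array A of double KD was dropped. Among nucleolar ribosome biogenesis factors 9 of 26 rose and 3 fell (median 0.10). Polr1b, a subunit of RNA polymerase I, went from 0.57 and 0.50 to 1.89 and 1.67 (1.24, adjusted p 0.00207). The rRNA processing factors Pes1 and Nop16 rose by 1.18 and 0.85 (adjusted p 0.00528 and 0.0122), although a second, dimmer Pes1 probe changed by 0.26. In the Myc network 3 of 12 rose, Myc, Mxd4 (0.55) and Mxd3 (0.38), and Mycn and Max were not called (-0.09 and 0.18). Myc was the 1 call left without array B of control KD or of double KD.

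Of 24 genes of G2 and mitosis 10 fell and 1 rose (median -0.32). The checkpoint kinase Bub1 fell by 0.58 (adjusted p 0.0127), the cyclin Ccnb2 by 0.56 and topoisomerase Top2a by 0.49, and the phosphatase Cdc25b rose by 0.44. The 11 calls were 4 without control KD array A and 6 without double KD array B. Genes of G1 and replication went both ways, with 8 of 29 higher and 7 lower. The cyclin Ccne1 rose by 0.89 (adjusted p 0.00761), E2f2 by 0.67, and Ccnd2 at least 4.72-fold, from the floor to -0.44 and -0.50. The retinoblastoma gene Rb1 fell by 0.82 (adjusted p 0.002) and the cyclin-dependent kinase inhibitor Cdkn1b by 0.63. These 15 calls were 8 and 9 without control KD array A or B, and 9 when array B of double KD was dropped.

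**Figure D4:**
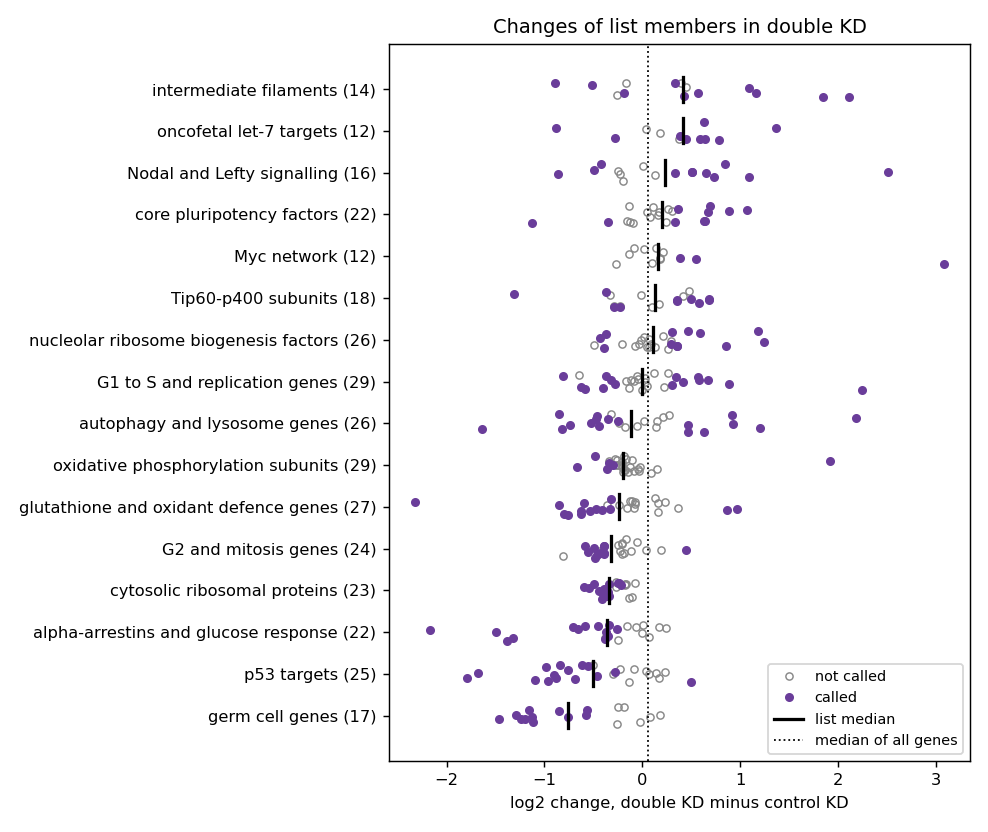
Log2 change in double KD of each tested member of 16 gene lists (points, filled where called, spread vertically only to separate them), the list median (black bar) and the median of all genes (dotted line at 0.05). The number of members tested stands in brackets. Germ cell genes and p53 targets lie mostly to the left, with medians of -0.76 and -0.50, and single genes such as Myc, Lefty2 and Atp5g1 lie far to the right of the rest of their lists.

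Of 22 core pluripotency factors 8 rose and 2 fell (median 0.20). Gbx2, a homeobox factor that supports self-renewal, read -1.09 and -1.19 in control KD and 0.02 and -0.17 in double KD (1.07, adjusted p 0.00277). Prdm14 and Nr0b1, of the naive state, rose by 0.88 and 0.69 (adjusted p 0.00902 and 0.0118), Pou5f1 (Oct4) by 0.63 (adjusted p 0.0171) and Klf2 by 0.66. Sox2 fell by 0.35 (adjusted p 0.0712), Dppa3, which germ cells also express, fell by 1.13 (adjusted p 0.0176), and Nanog was not called (0.16, adjusted p 0.206). With median scaling 0 of the 22 were called and their median was -0.04, against -0.16 for all genes. Of 9 formative and primed epiblast genes 4 rose and 1 fell, with Foxd3 first and the DNA methyltransferase Dnmt3a lower by 0.98 (adjusted p 0.0313). The count was 3 without control KD array A or double KD array B.

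The let-7 regulated oncofetal genes had 7 of 12 members higher and 2 lower (median 0.41). Hmga2, a chromatin architectural protein, read -1.37 and -1.39 in control KD and -0.05 and 0.02 in double KD (1.36, adjusted p 0.00111). It stood between the single knockdowns, 0.97 from Tip60 KD (adjusted p 0.0365) and -1.36 from Hdac6 KD (adjusted p 0.00475), and a second probe lay at or near the floor in both groups. The RNA-binding proteins Lin28a and Igf2bp3 rose by 0.64 and 0.62, and Dicer1, which cuts microRNA precursors, fell by 0.89 (adjusted p 0.00375). In Nodal and Lefty signalling 8 of 16 genes rose and 3 fell (median 0.23). The ligand Nodal went from 2.13 and 2.11 to 3.27 and 3.14 (1.08, adjusted p 0.00251). Its antagonist Lefty2 read 1.43 and 1.54 in control KD and 3.99 on double KD array B, with array A missing as an outlier spot, so its change of 2.50 rests on 1 double KD value. Lefty1 rose by 0.51 and the transducer Smad2 by 0.65, and Skil, a co-repressor of Smads, fell by 0.86 (adjusted p 0.00402). The count of 11 calls was 7 without control KD array B, and with median scaling 1 gene was called higher and 1 lower, with a median of -0.01.

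Of 16 FGF and ERK feedback genes 3 rose and 5 fell. The immediate early gene Ier3 fell by 1.49 (adjusted p 0.000997), Fos fell at least 2.39-fold to the floor on both double KD arrays, and Spry1, an inhibitor of the pathway, fell by 0.73, while Etv4 and Spred1 rose by 0.91 and 0.91. Among intermediate filaments 7 of 14 rose and 3 fell (median 0.41). Beside Nefh, the light neurofilament chain Nefl went from -1.79 and -2.17 to -0.14 and -0.14 (1.84, adjusted p 0.0015), Krt8 rose by 1.16 and Vim by 1.09, and Krt19 fell by 0.89.

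Lineage genes were measured in part. Of 12 neural and ectoderm genes 5 rose and 1 fell (median 0.42). The neuronal tubulin Tubb3 went from -0.42 and -0.74 to 1.19 and 1.17 (1.76, adjusted p 0.00155), and the growth cone gene Gap43 from the floor to 0.02 and -0.21, at least 6.12-fold higher. The neural fate factors Sox1 and Neurog2 were not called (0.04 and 0.14), and Pax6 was at the floor on all 4 arrays. The summed level of the 5 measured neural ectoderm markers was 1.08 and 1.07 in control KD and 1.93 and 1.97 in double KD, while 2 of the 5, Tubb3 and Map2, were called higher and the median change of the 5 was 0.14. Of 8 endoderm genes the basement membrane collagen Col4a1 rose by 1.45 (adjusted p 0.00094) and Col4a2 at least 2.44-fold, Lamb1 fell by 0.65, and Gata4 and Sox17 were not called (-0.38 and 0.13). Of 4 mesoderm genes Snai1 rose, at least 1.8-fold, and Eomes, Kdr and Tbx6 were not called. Of 7 trophectoderm genes 2 rose and 3 fell, with Krt8 higher by 1.16 and Tfap2c lower by 1.08 (adjusted p 0.0043). Of 8 fibroblast genes 3 rose and 2 fell, and 3 were called when any 1 array of control KD or double KD was dropped. The 5 measured fibroblast markers summed to 1.17 and 0.99 in control KD and 1.62 and 1.48 in double KD (2 called higher, median change 0.11), with Col1a2, Postn and Dcn below the filter, and the part of other cells in the changes of Vim and the collagens was not tested.

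In the Tip60-p400 complex 6 of 18 subunits rose and 4 fell, Kat5 among them. Epc1 and Vps72, the subunit that binds H2A.Z, rose by 0.67 and 0.67 (adjusted p 0.0123 and 0.025), the actin-related Actl6a rose by 0.58, and the ATPase Ep400 was not called (-0.33, adjusted p 0.144). The 10 calls were 4 and 6 without control KD array A or B, and 3 when array A of double KD was dropped. Of 16 other deacetylases 4 rose and 4 fell. Sirt1 went from 2.51 and 2.41 to 3.68 and 3.39 (1.07, adjusted p 0.00663), and the mitochondrial Sirt3 fell by 0.79 (adjusted p 0.0321). These 8 calls were 3 without control KD array A and 4 without double KD array B. Of 11 other lysine acetyltransferases 2 rose and 3 fell, with Hat1 the most changed, and 1 or 2 were called when an array of control KD or double KD was dropped.

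Among 20 Polycomb and histone methylation genes 3 rose and 3 fell. This list does not hold Setd1b and Epop, described above, which rose by 2.05 and 2.12. Suz12, a core subunit of Polycomb repressive complex 2, went from 4.02 and 3.87 to 2.91 and 2.77 (-1.10, adjusted p 0.00306), and its catalytic subunits Ezh1 and Ezh2 fell by 0.99 and 0.59 (adjusted p 0.00556 and 0.0152). Wdr5, Jarid2 and Bmi1 rose by 0.60, 0.59 and 0.58. Of 10 genes of DNA methylation and its removal, Tet2 and Uhrf1 rose by 0.72 and 0.58 and Dnmt3a and Dnmt1 fell by 0.98 and 0.21, and the count was 1 or 2 when an array of control KD or double KD was dropped. Of 16 substrates and partners of Hdac6, the tubulin Tuba1a rose by 1.00 (adjusted p 0.00185), and the autophagy genes Map1lc3b and Nbr1 by 0.63 and 0.50, while Plaa, of the ubiquitin system, fell by 0.57. That count of 5 was 3 without array A of control KD or of double KD.

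Autophagy and lysosome genes had 7 of 26 higher and 10 lower. Lamp2, a lysosomal membrane protein, went from 2.38 and 2.34 to 0.61 and 0.83 (-1.64, adjusted p 0.00122), and a second probe changed by -0.51. Gabarapl2, which tags autophagosome membranes, went from 2.81 and 2.86 to 3.97 and 4.09 (1.20, adjusted p 0.00126), and its relative Gabarapl1 fell by 0.85. Tfeb, the main activator of lysosomal genes, rose by 0.92. Of 29 subunits of oxidative phosphorylation 1 rose and 5 fell (median -0.20). The 1 was Atp5g1, for subunit c of the ATP synthase, which went from 2.97 and 2.95 to 5.00 and 4.74 (1.91, adjusted p 0.00114), although a second, dimmer probe changed by -0.70. Its relatives Atp5g2 and Atp5g3 were not called (-0.25 and -0.04). The 6 calls were 2 without control KD array A, in the series matrix and with median scaling, and 20 with the replicate block, 1 higher and 19 lower.

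Of 11 MHC class I and antigen processing genes 5 fell and 0 rose, with H2-T23 lower by 0.99 and H2-K1 by 0.69 (adjusted p 0.00241 and 0.00563), and 3 were called without control KD array A or double KD array B. Of 12 interferon response genes 5 rose and 3 fell, with the RNA sensor Ddx58 higher by 1.08 (adjusted p 0.00129), while Ifit1 and Irf7 were below the filter. Among 19 imprinted genes 4 rose and 5 fell, with Mest higher by 1.31 (adjusted p 0.00162) and Slc38a4 lower by 1.09 (adjusted p 0.00171). The numbers higher and lower were 6 and 6 of 20 sterol and fatty acid synthesis genes, 3 and 5 of 17 actin and SRF targets, 2 and 2 of 19 heat shock genes and 2 and 4 of 14 housekeeping genes. The heat shock genes were 8 and 0 after quantile normalisation, 6 and 0 in the series matrix, 7 and 3 with the replicate block, and 0 and 1 with median scaling. Of the housekeeping genes, Gapdh, Actb and Tbp were not called (-0.25, -0.15 and 0.04), and the count of 6 was 3 without control KD array A. The 12 calls in sterol and fatty acid synthesis were 6 without double KD array A.

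Genes that the study followed by RT-qPCR were taken from gene clusters of these arrays, so their calls are not independent evidence. Of these 12 genes 10 could be matched and all 10 were called, 5 higher and 5 lower. Beside Atp5g1, Lefty2, Nefl, Lamp2 and Gstm3, the adhesion molecule Jam2 went from 2.86 and 2.83 to 3.84 and 3.80 (0.98, adjusted p 0.00241), and the Wnt antagonist Sfrp5 rose at least 2.5-fold from the floor. The zinc finger gene Zc3h6 went from 0.65 and 0.47 to -0.88 and -0.94 (-1.47, adjusted p 0.00118). Gpsm2, which orients the spindle, fell by 0.83 (adjusted p 0.00321), and Mal2 fell at least 1.36-fold to the floor (adjusted p 0.0981).

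The direction of the calls moved with the level of the gene. In the dimmest quartile of genes 12.3% were called higher and 3.38% lower, and in the brightest 12.9% and 27.9%, with median changes of 0.16 and -0.12. The subtracted background was larger in control KD than in double KD, as given above. With the same background on every array, a setting chosen after seeing the data, the dimmest quartile had 6.54% higher and 5.01% lower and the brightest 12.1% and 18.97%, and 4897 genes were called in all. In the series matrix, whose values follow the raw signal, the dimmest quartile had 4.99% higher and 2.38% lower and the brightest 15.6% and 16.4%. With the replicate block these were 26.9% and 5.08%, and 21.6% and 43.8%. These 23 changes (11 increases and 12 decreases) kept their direction with the same background and in the series matrix. By the GC content of the probe 13.9% were called higher and 20.9% lower in the lowest bin, and 17.6% and 11.9% in the highest. The part of probe composition in this was not tested.

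**Figure D5:**
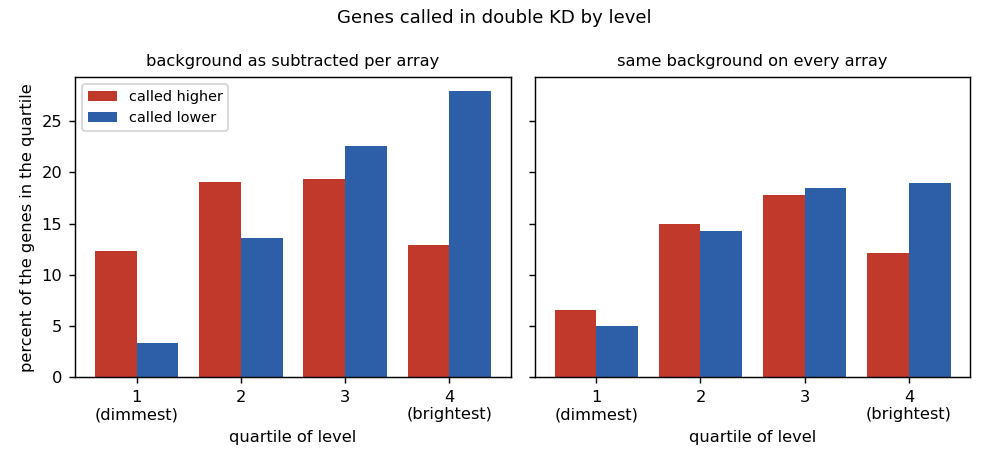
Percent of genes called higher (red) and lower (blue) in double KD (vertical axis) in each quartile of level (horizontal axis), with the background as subtracted on each array (left) and with the same background on every array (right). On the left the dimmest genes were called higher in 12.3% and lower in 3.38%, and on the right in 6.54% and 5.01%.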

How the data were processed

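RNA of 8 cultures was labelled with Cy3 and hybridised to 1-colour Agilent mouse arrays. Per the file headers, the deposited intensity values came from Agilent Feature Extraction 10.7.1.1, which subtracted background on each array and left arrays unscaled. A deposited table of log2 values orders the spots of each array exactly as the raw median signal does, and how it was normalised is not given in the sources used here. Spots with outlier marks were set to missing and spots of a probe averaged. Of 39429 probes 27228 took a RefSeq symbol, and the others kept the name in the files. Probe positions are those of the files (mm9).

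Processed signals were divided by the 75th percentile of their array, raised to a floor of 0.153 and converted to log2. Kept probes exceeded both background and floor on 2 or more arrays, the brightest probe stood for its gene, and 8.86% of the values were at the floor. A gene with a group at the floor has its change given as a bound. Of 846 genes with several called probes, 59 had probes in opposite directions. All 8 arrays were fitted by group in limma 3.58.1 (R 4.3.3), 2-sided, with Benjamini-Hochberg adjustment over all genes and a threshold of 0.1. Every adjusted p in the text is limma's. Residual degrees of freedom were 4 and prior ones 1.84, so precision is limited by how many arrays there are. The limma fit was tested on simulated log2 values, and the steps before it were not part of that test.

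Replicate letter, slide and scan coincide, and group and position on the slide cannot be told apart. The A minus B differences of the 6 pairs of groups correlated across genes (r 0.651 to 0.799). The letters were therefore taken to pair the arrays in the slide differences and in the replicate block. The main fit, which gave the adjusted p-values in the text, leaves this pairing out. Alternatives were the replicate block, other backgrounds, scalings, floors, filters, probe rules and thresholds, and fits without each array. When probes of a gene were averaged, those with a value on every array were used. Named genes are both targets, the 12 largest increases and decreases above the floor on all 4 arrays and called with the block too, the RT-qPCR panel, and up to 4 called members per list. Of the increases 1 is not reported here, so 11 are described. Members, lists and rules were chosen with earlier results of these data known. Python 3.11.15 and matplotlib 3.10.9 drew the figures.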

Additional observations from a re-analysis of the deposited data

How the results depend on the processing

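The 5939 genes called in double KD against control KD were 530 with a 2-fold minimum, 10045 with the replicate block (paired arrays) and 759 with median scaling. They were 3749 to 5537 with any 1 array left out and 4234 to 6049 under the other settings. Against Tip60 KD, 672 genes became 13 with a 2-fold minimum, 65 at an adjusted p under 0.05, 4748 with the block, 59 with normexp, 0 with median scaling (533 at an unadjusted p under 0.05 in limma), 281 with a low floor, 1065 with probes well above background on all 8 arrays, 111 in the series matrix and 153 with the same background on every array. With 1 array left out they were 0 to 12, with 2123 to 2871 at an unadjusted p under 0.05. Against Hdac6 KD, 1829 genes became 144 with a 2-fold minimum, 950 at an adjusted p under 0.05, 5325 with the block, 1150 with normexp, 0 with median scaling (954 at an unadjusted p under 0.05 in limma), 1056 in the series matrix and 156 to 1287 with 1 array left out. Higher calls were 31.0% of those against Tip60 KD, 40.9% after quantile normalisation, 16.2% in the series matrix, 50.3% with the block and 91.7% (11 of 12) without Tip60 KD array B. Kat5 and Hdac6 kept direction and call under every setting run. Of 150 named genes 61 did so too, no direction was reversed, and the block cost none its call, while median scaling cost 86. The causes were not tested. The low share of spots above background on array B of control KD limits what can be said of dim genes.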
